A study of Mus musculus with 17 samples.

Results

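Chromatin accessibility was examined at 8 genes of the podocyte, the epithelial cell that wraps the glomerular capillaries of the kidney, out of the 55413 genes of the mouse annotation. The genes were Nphs1, Podxl, Synpo, Actn4, Plce1, Wt1, Lmx1b and Tcf21, chosen by name as genes that mark podocytes or are needed in them. For each gene, the summits of accessible chromatin, the single bases at which the signal of a peak was highest, were collected from 10 kb upstream of the gene to its end. The 17 libraries came from mouse kidneys, with 20000 cells per library. The Ctrl group (n = 5) held C57BL/6 mice of WT genotype. The Case group (n = 6) held db/db mice (BKS.Cg-Dock7m +/+ Leprdb/J), which lack a working leptin receptor and become obese and diabetic. The remaining 6 db/db mice formed the Dapa group and were gavaged for 6 weeks with 1 mg/kg/day of dapagliflozin, a drug that blocks glucose uptake by the renal transporter SGLT2. All mice were males and 8 weeks old when the 6 weeks of treatment began, and the Ctrl and Case mice received saline instead of the drug. Ctrl and db/db mice differed in strain as well as in the leptin receptor and diabetes, and these cannot be told apart. Glomeruli were not separated from tubules in any description used here, so fewer podocytes and less open chromatin in each podocyte cannot be told apart.

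Podocytes form the last layer of the glomerular filter. Their interlocking foot processes are bridged by the slit diaphragm, shaped by an actin skeleton and covered by a negatively charged coat, and a small set of transcription factors keeps the cells in this state. Mature podocytes hardly divide, and their damage in diabetes is followed by albumin in the urine. They make up a small share of kidney cells, most of which are tubular.

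The lists held from 29702 to 56659 summits per library, and the sequencing depth behind them is unknown. The 29702 highest summits of each library, here called the equal-length list, were therefore compared, with the complete lists beside them. Each summit was given a rank percentile within its list, with 100 for the highest summit, and the value of a gene in a mouse was the percentile of its highest summit, or 0 where it had none. A summit within 1 kb of an annotated transcription start is called a promoter summit. The proximal tubule genes Lrp2, Hnf4a and Aqp1 had promoter summits in 17 of 17 libraries. The libraries Case 3 and Dapa 8 stood apart, with promoter summits at 9 and 6 of 20 leukocyte genes, against 0 to 3 in each of the other libraries. Ptprc, the gene of the leukocyte antigen CD45, had no promoter summit in any library. The part of these leukocyte signals in the results was not tested, and values without both libraries are given where they moved a result.

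The podocyte genes ranged from a summit in every mouse to none at all. Actn4 and Synpo had a summit in 17 of 17 mice and Plce1 in 16. Nphs1 had one in 11 mice, Podxl and Lmx1b in 7 each and Wt1 in 2. Tcf21 had none, in the complete lists either. The equal-length lists held 200 summits in the 8 windows, of which 94 lay at Actn4, 43 at Synpo, 29 at Plce1, 16 at Nphs1, 9 at Lmx1b, 7 at Podxl and 2 at Wt1. Of the 200, 111 lay in introns, 41 in exons and 48 upstream, and 39 (19.5%) were promoter summits of the gene itself. The number of these genes with a summit in a mouse was 4.4 ± 1.52 among Ctrl mice (SD, n = 5), 4.17 ± 0.983 among Case mice and 5.0 ± 0.632 among Dapa mice (SD, n = 6 each). In complete lists, which were longest in Ctrl, it was 6.8 ± 0.447 among Ctrl mice (SD, n = 5), 5.17 ± 0.983 among Case mice and 5.83 ± 0.753 among Dapa mice (SD, n = 6 each), so that the Ctrl mean moved from below the Dapa mean to above it.

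**Figure D1:**
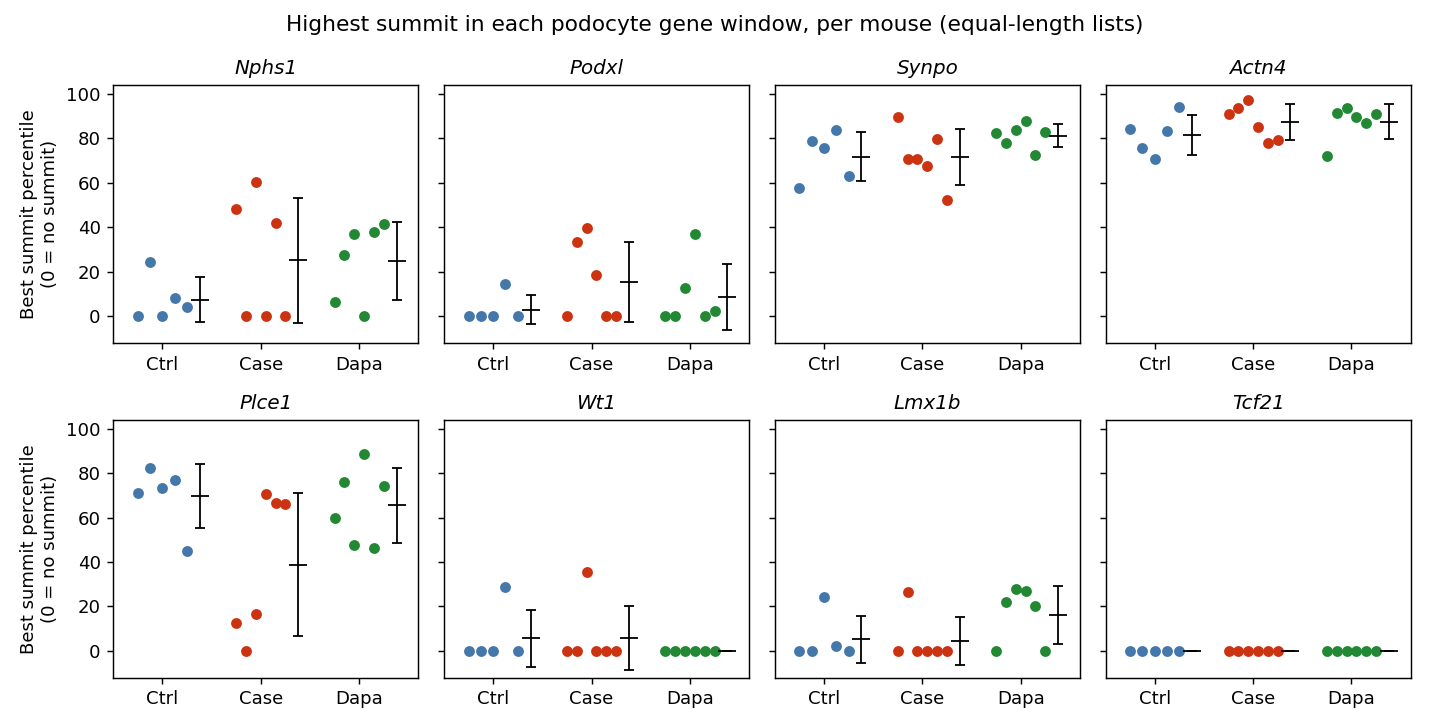
Rank percentile of the highest summit in each podocyte gene window (vertical axis, 0 where the gene had none) in every mouse of the Ctrl, Case and Dapa groups, from equal-length lists, with group means and SD. Actn4 and Synpo were above 50 in all 17 mice, Plce1 spread from 0 to 88.6, and Tcf21 was at 0 throughout.

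Sites that bear on the results are printed here from the reference genome (GRCm38, the assembly of mm10), 201 bases each on the strand of the gene. The Nphs1, Actn4 and Plce1 sites are the recurrent ones of these genes, the Wt1 site is centred on the median of its Ctrl summits, and the Tcf21 sequence lies just before the start of the gene without any summit. Capitals mark matches, on either strand, to GCGGGGGCG and GCGTGGGAG (zinc finger factors of the WT1 and EGR type), TAATTA (homeodomains such as LMX1B), CAGCTG (an E-box of the kind TCF21 binds), GTAAACA (forkhead), GGAATG (TEAD) and CAAAGTCCA (HNF4A). The matches shown do not overlap each other.
Nphs1 upstream site, chr7:30451058-30451258, plus strand: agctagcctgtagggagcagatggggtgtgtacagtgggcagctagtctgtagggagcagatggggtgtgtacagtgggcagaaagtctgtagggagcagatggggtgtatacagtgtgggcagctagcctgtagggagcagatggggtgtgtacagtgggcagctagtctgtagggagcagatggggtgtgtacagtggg
Actn4 start site, chr7:28962356-28962556, minus strand: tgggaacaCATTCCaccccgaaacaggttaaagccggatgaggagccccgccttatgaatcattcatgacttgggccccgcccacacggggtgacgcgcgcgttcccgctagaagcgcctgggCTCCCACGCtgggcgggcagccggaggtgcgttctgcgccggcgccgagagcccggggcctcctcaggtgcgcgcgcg
Actn4 intron site, chr7:28925434-28925634, minus strand: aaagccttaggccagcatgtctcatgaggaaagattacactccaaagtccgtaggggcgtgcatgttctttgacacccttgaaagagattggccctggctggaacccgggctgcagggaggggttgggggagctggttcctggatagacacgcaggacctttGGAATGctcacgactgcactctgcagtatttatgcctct
Plce1 intron site, chr19:38687418-38687618, plus strand: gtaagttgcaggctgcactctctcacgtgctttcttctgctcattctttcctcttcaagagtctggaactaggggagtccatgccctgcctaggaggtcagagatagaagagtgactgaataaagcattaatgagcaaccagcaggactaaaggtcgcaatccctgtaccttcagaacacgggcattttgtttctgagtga
Wt1 first exon, chr2:105127137-105127337, plus strand: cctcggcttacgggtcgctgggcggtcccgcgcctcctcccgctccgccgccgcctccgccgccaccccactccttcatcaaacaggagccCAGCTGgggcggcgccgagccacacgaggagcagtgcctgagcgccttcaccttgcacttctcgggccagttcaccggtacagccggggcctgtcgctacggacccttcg
Tcf21 upstream, chr10:22820175-22820375, minus strand: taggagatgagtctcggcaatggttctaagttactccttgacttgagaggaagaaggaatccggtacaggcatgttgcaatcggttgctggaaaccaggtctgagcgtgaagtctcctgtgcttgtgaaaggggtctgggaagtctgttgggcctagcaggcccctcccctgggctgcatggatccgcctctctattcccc

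Nphs1 encodes nephrin, the adhesion protein that spans the slit diaphragm (chr7:30458315-30487223, plus strand). In Ctrl mice its highest summit had percentiles of 0, 24.6, 0, 8.12 and 4.24. In Case mice the lowest value was 0, the median 20.9 and the highest 60.5, and in Dapa mice these were 0, 32.3 and 41.3. The groups overlapped. A summit was present in 5 of 6 Dapa mice, in 3 of 6 Case mice and in 3 of 5 Ctrl mice. A promoter summit of Nphs1 itself was found in 3 mice, all of them Case. In Case 1 and Case 5 it lay in an intron 1 bp apart, at 30475259 and 30475258, downstream of an internal start. In Case 3 it lay in an exon 198 bp downstream of the gene start, near the end of the list (percentile 0.875). In complete lists 6 mice had a promoter summit of Nphs1, of which 2 were Ctrl, 3 were Case and 1 was Dapa.

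The recurrent site of the Nphs1 window lay upstream, in a region (chr7:30450648-30451680) with a summit in 11 of 17 mice. Its median summit was at −7157 bp from the Nphs1 start and at −294 bp from the start of Kirrel2, which encodes a related slit diaphragm protein and runs in the opposite direction. By the 1 kb rule it was a promoter site of Kirrel2, with a promoter summit of that gene in 11 libraries, and not of Nphs1. All 11 mice counted with a summit in the Nphs1 window had one in this region. Which of the 2 genes the site acts on was not tested. The printed sequence of this site is a tandem repeat. A run of 21 bases, ctgtagggagcagatggggtg, stands 5 times in the printed window and 10 times within 2 kb of the region, from 30450983 to 30451489, with a median spacing of 40 bases. No other exact copy was found on the 21 chromosomes searched. At a shift of 40 bases, 80.1% of the bases of the window equalled their partners. Of the 52390 consensus regions (sites with a summit in at least 2 libraries), 2.88% reached that share at any shift of 10 to 60 bases, and the median was 34.4%. The summits in the region were scattered over 532 bp (SD 186 bp, n = 11), and 9 of the 11 lay inside the array. How reads within the array were placed was not tested.

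Podxl encodes podocalyxin, the main protein of the charged coat (chr6:31519488-31563981, minus strand). A summit was present in Ctrl 4 (percentile 14.7), in Case 2, 3 and 4 (33.2, 39.6 and 18.7) and in Dapa 9, 10 and 12 (12.8, 37.0 and 2.51). The 1 recurrent region was shared by Ctrl 4 and Dapa 9 and lay in an exon, 197 bp downstream of the start. The complete lists held a Podxl summit in 14 of 17 mice and a promoter summit in 6 of them, of which 3 were Ctrl, 1 was Case and 2 were Dapa.

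Synpo encodes synaptopodin, an actin-binding protein of the foot processes (chr18:60593973-60660142, minus strand). In Ctrl mice its highest summit stood at 57.9, 78.8, 75.4, 83.8 and 63.1. The Case mice ran from 52.1 through a median of 70.5 to 89.6, and the Dapa mice from 72.4 through 82.7 to 87.7. All Dapa values lay within the range of the Case mice. The summits gathered far from the start of the gene. A region in 17 of 17 mice lay in an exon 53.9 kb downstream of the gene start, 3852 bp beyond the nearest internal start. A further exonic region 63.9 kb downstream was found in 16 mice. Promoter summits were present in 6 mice (1 Ctrl, 3 Case and 2 Dapa). The region nearest to a start, 83 bp downstream of an internal one, was found in Case 2 and Case 3 only.

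At the Synpo site 63.9 kb downstream the percentiles were 41.9, 76.9, 74.3, 83.8 and 51.6 in Ctrl mice. They ran from 0 through a median of 40.4 to 55.5 in Case mice and from 13.8 through 52.2 to 72.4 in Dapa mice. Case 6 alone had no summit there. The site 53.9 kb downstream was at 70.7 ± 9.62 in Ctrl mice (SD, n = 5), and at 69.3 ± 14.6 in Case mice and 77.6 ± 13.5 in Dapa mice (SD, n = 6 each). The more distal site was singled out after its values had been seen, and its levels are a description.

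Actn4 encodes alpha-actinin-4, which crosslinks actin filaments in many cell types and whose inherited variants cause a podocyte disease in humans (chr7:28893248-28962340, minus strand). It was the only one of the 8 genes with a promoter summit in 17 of 17 mice. Its highest summit stood at 84.1, 75.7, 70.5, 83.2 and 94.0 in Ctrl mice. It ran from 77.9 through a median of 88.1 to 97.1 in Case mice and from 72.0 through 90.3 to 93.8 in Dapa mice, so that the groups overlapped. The start region had its median summit at −116 bp, with an SD of position of 46.0 bp (n = 17). The printed start site had a GC content of 69.2%, against a median of 53.2% over consensus regions, and held 1 match each to GCGTGGGAG and GGAATG.

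The Actn4 window held more recurrent sites than any other of the 8, with 9 regions, and each mouse had from 3 to 9 summits in the whole window. The printed intron site, 36.8 kb downstream of the start, was found in 17 of 17 mice at percentiles of 51.2 to 91.1, with an SD of position of 29.7 bp. An intronic region 30.8 kb downstream was found in 15 mice. A region at −7758 bp was found in 14 mice and lay 4738 bp downstream of the nearest annotated start of the neighbouring gene Eif3k. An intronic region 32.7 kb downstream (chr7:28929149-28929936) had the lowest p of the regions in the 8 windows. It was found in 5 of 6 Case mice, 3 of 6 Dapa mice and 1 of 5 Ctrl mice (Case against Ctrl, Fisher's exact test, 2-sided, p = 0.0801, Benjamini-Hochberg adjusted 0.337). These last 4 regions were singled out after their values had been seen.

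Plce1 encodes phospholipase C epsilon 1, a signalling enzyme whose loss causes nephrotic syndrome in humans (chr19:38481109-38785030, plus strand). Its highest summit stood at 71.0, 82.4, 73.3, 76.9 and 45.1 in Ctrl mice. In Case mice the lowest value was 0, the median 41.5 and the highest 70.7, and in Dapa mice these were 46.3, 67.0 and 88.6. Case 1, 2 and 3 were low, at 12.7, 0 and 16.8, whereas Case 4, 5 and 6 lay within the Ctrl range. In all 5 Ctrl mice the highest summit lay at the printed intron site, 206 kb downstream of the start, and this region had a summit in 4 of 6 Case and 6 of 6 Dapa mice as well. A site on so many lists could not reach an unadjusted p of 0.05 in Case against Ctrl (Fisher's exact test, 2-sided, p = 0.455). The position of the 15 summits had an SD of 38.1 bp. The printed site held none of the motifs, and its GC content was 47.8%. The start of Plce1 had a promoter summit in 2 of 17 mice, Ctrl 1 and Dapa 7, both in a region at −35 bp. In complete lists 7 mice had one, of which 4 were Ctrl, 2 were Case and 1 was Dapa (Dapa against Ctrl, Fisher's exact test, 2-sided, p = 0.0801, Benjamini-Hochberg adjusted 0.353).

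**Figure D2:**
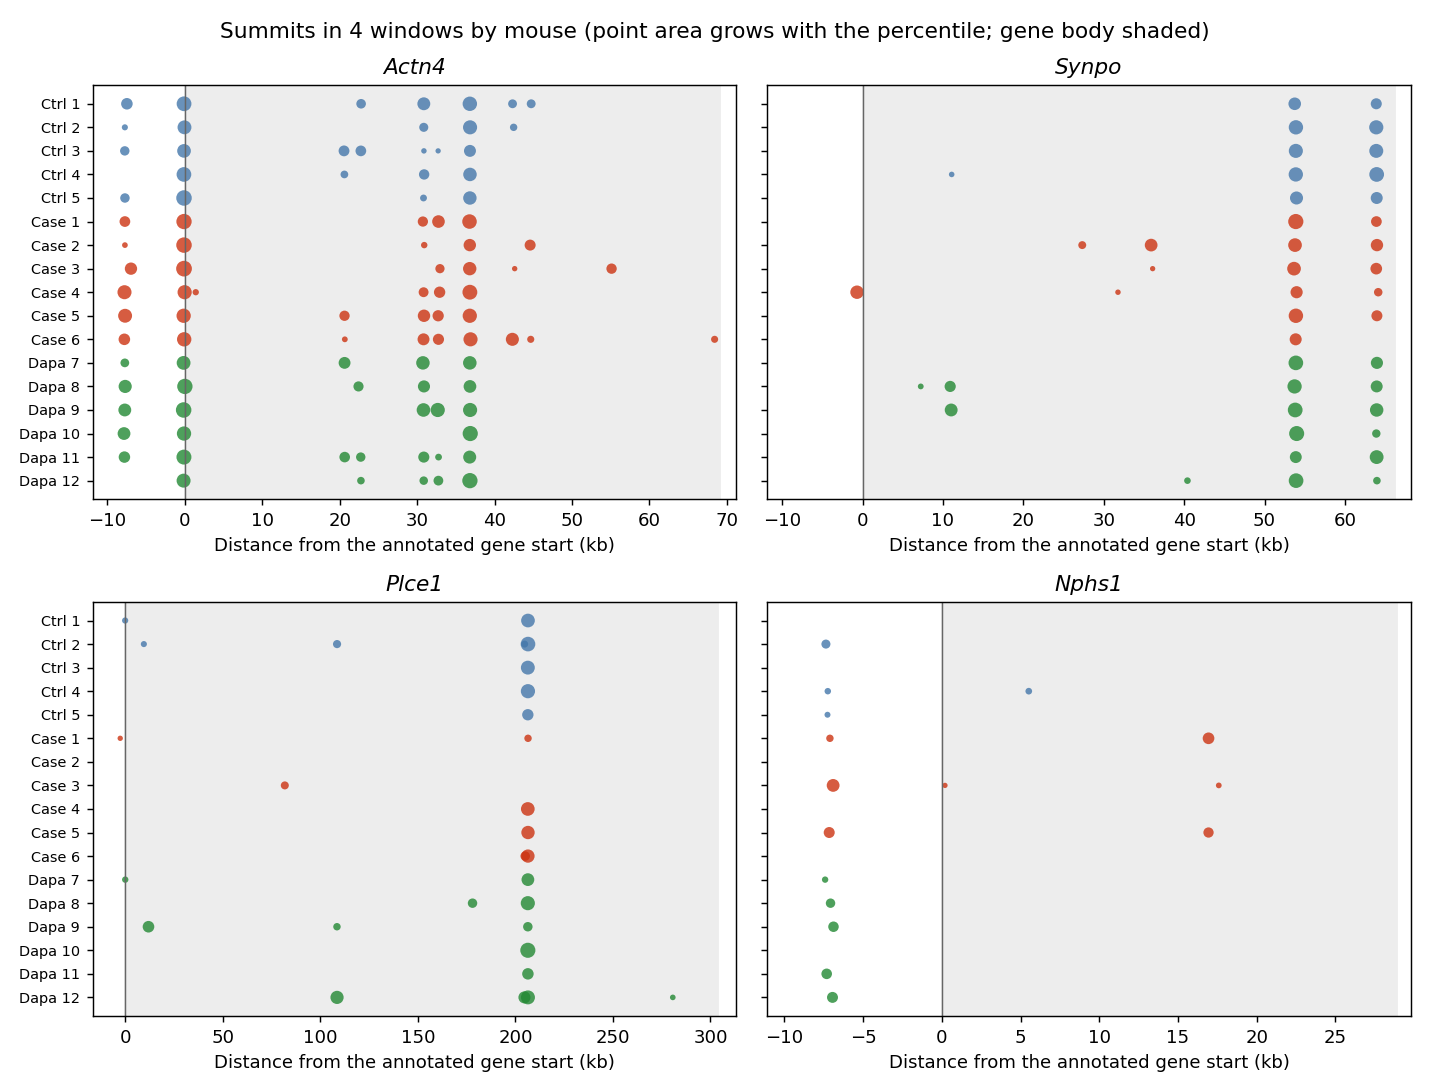
Summits of the equal-length lists in the Actn4, Synpo, Plce1 and Nphs1 windows, by distance from the annotated gene start in kb (horizontal axis) and by mouse (vertical axis), with point area growing with the rank percentile. Columns of points mark recurrent sites, 2 in all 17 mice at Actn4, 1 in all 17 at Synpo, 1 in 15 at Plce1 and 1 upstream of Nphs1 in 11.

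**Figure D3:**
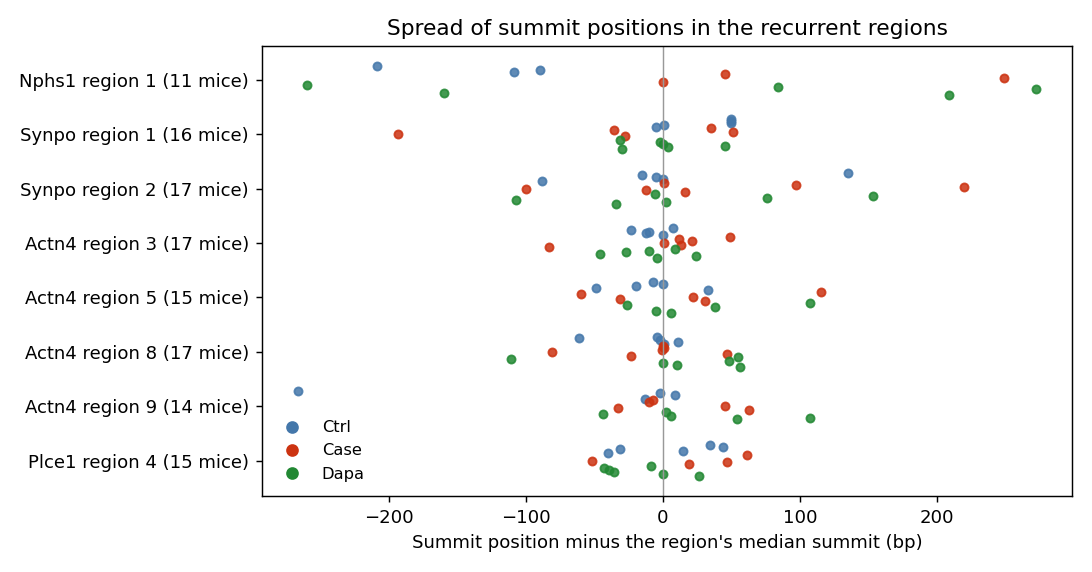
Summit position in each mouse minus the median summit of its region in bp (horizontal axis), for the regions of podocyte genes found in at least 11 mice (rows), coloured by group. Regions are numbered along the chromosome within each gene. The Nphs1 upstream region (region 1) had the widest SD (186 bp) and the Actn4 intron site (region 3) the narrowest (29.7 bp).

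Wt1 encodes the zinc finger factor that drives many podocyte genes (chr2:105126529-105173616, plus strand). In equal-length lists Ctrl 4 (percentile 28.8) and Case 3 (35.4) were the mice with a Wt1 summit. In the complete lists all 5 Ctrl mice had promoter summits in exonic sequence, the highest at percentiles of 21.4, 29.6, 23.9, 50.6 and 0.722. Case 3 was the 1 Case mouse with a promoter summit (35.7), which lay 4.1 kb downstream of the gene start beside an internal start. Dapa 12 was the 1 Dapa mouse with a promoter summit (12.8), and Dapa 7 had an intronic summit (6.19). The percentiles of the groups overlapped, and the summits did not all lie at the same start.

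Wt1 was singled out for the complete lists after its values had been seen. In these lists, promoter presence of Wt1 was 83.3 percentage points higher in Ctrl than in Case, a difference of −83.3 as Case minus Ctrl (5 of 5 against 1 of 6, Fisher's exact test, 2-sided, p = 0.0152, Benjamini-Hochberg adjusted over 2728 genes 0.146). The Dapa against Ctrl values were the same in counts (1 of 6 against 5 of 5, Fisher's exact test, p = 0.0152, Benjamini-Hochberg adjusted over 2471 genes 0.182). Neither passed the adjusted threshold of 0.05. In the same tests 10.4% and 8.34% of genes had an unadjusted p under 0.05, and in Case against Ctrl nearly all of these (10.2%) were lower in Case. Complete lists were longer in Ctrl (45444 ± 7197 summits, SD, n = 5) than in Case or Dapa (37299 ± 8784 and 40574 ± 6987, SD, n = 6 each), and at equal length the counts were 1 of 5, 1 of 6 and 0 of 6. The part of list length in the difference was not tested beyond that. With any 1 Ctrl or Case mouse other than Case 3 left out, the Case against Ctrl p was 0.0476, and without Case 3, the Case mouse with the summit, it was 0.00794 (Fisher's exact test, Benjamini-Hochberg adjusted 0.273, with a difference of −100 percentage points). These unadjusted p-values follow from the counts of 5 of 5 and 1 of 6, so they are no further evidence for the difference. The number of Wt1 summits in complete lists was 0.167 in Case against 1.2 in Ctrl (exact permutation test, 2-sided, p = 0.0216, Benjamini-Hochberg adjusted 1), where 2.97% of 37918 genes had an unadjusted p under 0.05. It was 0.333 in Dapa (exact permutation p = 0.0649 against Ctrl), and a summit anywhere in the Wt1 window was present in 2 of 6 Dapa mice (Fisher's exact test against Ctrl, p = 0.0606). The Wt1 percentile in complete lists, which rank summits of lists of unequal length, was 3.16 in Dapa against 25.2 in Ctrl, a difference of −22.1 (exact permutation test, 2-sided, p = 0.0130, Benjamini-Hochberg adjusted 0.388), where 8.96% of 38276 genes did. It was 5.96 in Case, a difference of −19.3 from Ctrl (exact permutation p = 0.0866, Benjamini-Hochberg adjusted 0.581). In equal-length lists the percentile difference was −5.76 in Dapa against Ctrl (exact permutation p = 0.909) and that of summit number −0.0333 in Case against Ctrl (exact permutation p = 1), where the few mice with a summit allowed no p under 0.05. The printed Wt1 window was coding sequence in all 201 bases, had a GC content of 71.6% and held 1 E-box.

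**Figure D4:**
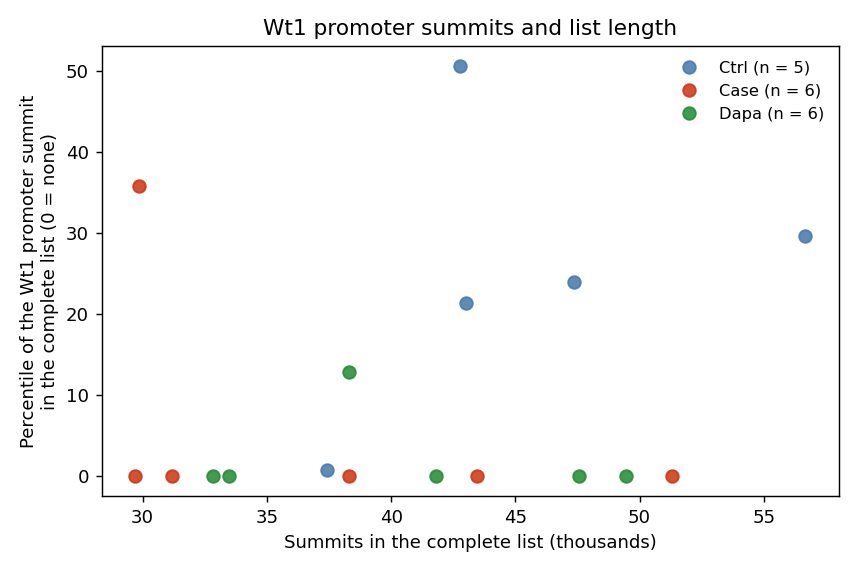
Rank percentile of the highest Wt1 promoter summit in the complete list of each mouse (vertical axis, 0 where there was none) against the number of summits in that list (horizontal axis), by group. All 5 Ctrl mice were above 0, the lowest at 0.722, against 1 of 6 Case and 1 of 6 Dapa mice.

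Lmx1b encodes a homeodomain factor needed for the podocyte and the glomerular basement membrane (chr2:33560965-33640511, minus strand). A summit was present in Ctrl 3 and 4 (percentiles 24.1 and 2.10), in Case 2 (26.5) and in Dapa 8, 9, 10 and 11 (22.1, 27.9, 26.8 and 20.3). In these lists the Dapa group had the most mice with a summit, and the difference of 50.0 percentage points from Case was within the spread (4 of 6 against 1 of 6, Fisher's exact test, 2-sided, p = 0.242, Benjamini-Hochberg adjusted 1). No Lmx1b region was found in more than 2 mice. In complete lists every Ctrl mouse had an Lmx1b summit, as did 5 of 6 Dapa mice and 4 of 6 Case mice, and the difference of Dapa from Case was 16.7 points. Tcf21 encodes a basic helix-loop-helix factor (chr10:22817281-22820174, minus strand) and had the shortest window, of 12.9 kb. Its printed upstream sequence held none of the motifs and had a GC content of 54.7%, the same as the median upstream of 21938 protein-coding genes.

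The motif letters were of unequal rarity. In windows of the same length, CAGCTG stood in 14.2% of the consensus regions, GGAATG in 11.0%, TAATTA in 3.92%, GTAAACA in 2.26%, CAAAGTCCA in 1.90%, GCGGGGGCG in 1.37% and GCGTGGGAG in 0.208%. The GCGTGGGAG match at the Actn4 start was thus of a kind found in few regions, while the E-box in Wt1 was of a common kind. Upstream of 21938 protein-coding genes GCGTGGGAG stood in 0.333% of windows. The Actn4 start window had a higher GC content than 90.5% of consensus regions, and shares at equal GC content were not computed. A match in letters is a description and shows no binding.

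The first comparison asked whether accessibility at podocyte genes differed between diabetic and healthy kidneys. In Case against Ctrl the values of 5 of the 8 genes allowed an unadjusted p under 0.05 by percentile and summit number, and none of the 5 had one. Wt1, Lmx1b and Tcf21 had a summit in too few of these mice. By presence, only 2 of the 8 could reach 0.05 in each of the 3 comparisons, and none did. Over all genes 9.87% of 32223 did by percentile, 2.72% by summit number and 7.96% of 4282 by presence. For percentile and summit number, these shares and those of the other 2 comparisons are over every gene with a summit, including genes with too few to reach 0.05. The largest difference was at Plce1, with 38.8 ± 32.3 in Case (SD, n = 6) against 69.7 ± 14.4 in Ctrl (SD, n = 5). This difference of −30.9 did not exceed the variation among mice (p = 0.0909 by a 2-sided exact permutation test, Benjamini-Hochberg adjusted 0.606). With 1 Ctrl or Case mouse left out it ran from −37.3 to −23.1 (exact permutation p from 0.00952 to 0.167). It was −37.1 without Ctrl 5, the lowest Ctrl mouse (exact permutation p = 0.00952), and −26.5 without Case 3 (exact permutation p = 0.167). At the region beside Kirrel2 alone, the means in the Nphs1 window were 19.2 in Case and 7.14 in Ctrl. Over its whole window Nphs1 was at 25.1 ± 28.2 in Case (SD, n = 6) against 7.39 ± 10.2 in Ctrl (SD, n = 5), a difference of 17.7 (exact permutation p = 0.242). Without Case 3 it was 10.6 (exact permutation p = 0.444), in complete lists 0.987 (exact permutation p = 0.931) and in lists of 14851 summits 3.51 (exact permutation p = 1). Actn4 was at 87.4 ± 7.91 in Case (SD, n = 6) against 81.5 ± 8.94 in Ctrl (SD, n = 5), with an exact permutation p of 0.277, and Synpo differed by −0.121 (exact permutation p = 1). The Actn4 difference, 5.85 with all mice, ran from 3.10 to 8.97 with 1 mouse left out. The median difference over the 8 genes was 0.0718, against 0 over 21938 protein-coding genes.

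The second comparison asked what accompanied dapagliflozin in db/db mice. Apart from Wt1 and Tcf21, 6 of the 8 genes could reach an unadjusted p under 0.05 by percentile and summit number in Dapa against Case, and none did. Over all genes 2.81% of 33389 did by percentile, 0.59% by summit number and 1.25% of 2961 by presence. Plce1 was at 65.5 ± 16.9 in Dapa (SD, n = 6), 26.6 above Case (exact permutation test, 2-sided, p = 0.113, Benjamini-Hochberg adjusted 1). Synpo was at 81.2 ± 5.34 in Dapa (SD, n = 6) against 71.7 ± 12.6 in Case (SD, n = 6), a difference of 9.51 (exact permutation p = 0.115, Benjamini-Hochberg adjusted 1). With 1 Case or Dapa mouse left out it ran from 5.59 to 13.1, the highest without Case 1 (exact permutation p from 0.0173 to 0.229). The means of Nphs1 and Actn4 differed by −0.123 and 0.0839 (exact permutation p of 0.978 and 0.981). Actn4 had 5.0 ± 1.26 summits in Dapa and 6.17 ± 1.47 in Case (SD, n = 6 each, exact permutation p = 0.275). This difference in summits ran from −1.57 to −0.6 with 1 mouse left out and changed direction in lists of 14851 summits. The median difference over the 8 genes was 0.0419, against 0 over protein-coding genes.

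The third comparison set treated db/db mice beside healthy ones and shares its Ctrl mice with the first and its Dapa mice with the second. In equal-length lists 6 of the 8 genes could reach an unadjusted p under 0.05 by percentile and 5 by summit number, and none did. Over all genes 10.3% of 31216 did by percentile, 2.16% by summit number and 5.66% of 3834 by presence. Nphs1 had the lowest p, with 25.0 ± 17.6 in Dapa (SD, n = 6) against 7.39 ± 10.2 in Ctrl (SD, n = 5), a difference of 17.6 (exact permutation test, 2-sided, p = 0.0779, Benjamini-Hochberg adjusted 0.566). In the 5 Dapa mice with an Nphs1 summit it lay in the tandem repeat region beside Kirrel2. With 1 Ctrl or Dapa mouse left out the Nphs1 difference ran from 14.3 to 22.6 (exact permutation p from 0.0238 to 0.143). It was highest without Dapa 10, the Dapa mouse that had no Nphs1 summit. In complete lists it was 10.1 (exact permutation p = 0.424). It changed direction with windows from 2 kb upstream, which leave this region out. Synpo was 9.39 higher in Dapa (exact permutation p = 0.113). With 1 Ctrl or Dapa mouse left out the Synpo difference ran from 5.91 to 12.4, the highest without Ctrl 4 (exact permutation p from 0.0476 to 0.248). Plce1 differed by −4.28 (exact permutation p = 0.675) and Actn4 by 5.93 (exact permutation p = 0.264). With 1 mouse left out, Plce1 ran from −10.4 to −0.443 and Actn4 from 3.18 to 9.05. The median difference over the 8 genes was 5.86, against 0 over protein-coding genes.

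Of the consensus regions, 22 lay in the windows of the 8 genes. Of these, 3 were in all 17 libraries (13.6%, beside 7874 of all 52390 regions) and 6 were in 2 libraries. Most of the 22 were on too few or too many lists for an unadjusted p under 0.05 by Fisher's exact test. The regions that could reach it numbered 4 in Case against Ctrl, 0 in Dapa against Case and 3 in Dapa against Ctrl, and none did. Among all regions that could reach it, 10.3% of 11400 did in Case against Ctrl, 1.24% of 7206 in Dapa against Case and 7.76% of 10867 in Dapa against Ctrl, and with so few regions nothing is read from the comparison. No gene and no region of the whole table passed the adjusted threshold in the 3 comparisons by presence, percentile or summit number.

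Promoters of the 8 genes were on few lists. The median was 2 of 17 libraries per gene, against 8 over all protein-coding genes. Of all protein-coding genes, 31.6% had a promoter summit in all 17 libraries and 32.9% in none. Among the 8 genes 1 had it in all 17 and 1 in none (12.5% each). In complete lists the medians were 6.5 and 10 libraries. Among 30 other podocyte genes the median was 14 libraries, and 11 genes had a promoter summit in all 17. Among these were Cd2ap, Magi2, Myo1e, Myh9, Arhgap24, Itga3, Itgb1, Efnb1, Rhpn1 and Dag1, most of which are also used by other cell types. There were 6 genes with no promoter summit, among them Ptpro, Inf2, Lamb2, Pla2r1 and Nes, and in complete lists Ptpro was the 1 such gene. The number of the 30 with a promoter summit in a mouse ranged from 15 to 21.

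Of these 30 genes, 3 had an unadjusted p under 0.05 for the percentile in a comparison and were singled out after their values had been seen. By comparison these were 2 of 30 in Case against Ctrl, where 9.87% of all genes did, 1 of 30 in Dapa against Case, where 2.81% did, and 1 of 30 in Dapa against Ctrl, where 10.3% did, so that the counts were near or below the shares over all genes. Cd2ap encodes an adaptor that ties nephrin to actin. It stood at 83.6, 82.9, 72.9, 76.9 and 67.7 in Ctrl mice and ran from 27.4 through a median of 43.0 to 67.6 in Case mice and from 13.8 through 41.5 to 89.6 in Dapa mice. All Case mice lay below all Ctrl mice, Case 2 and Ctrl 5 nearly meeting. The means were 45.7 ± 13.9 in Case (SD, n = 6) and 76.8 ± 6.72 in Ctrl (SD, n = 5), a difference of −31.1 (exact permutation p = 0.00433, the smallest this design can give, Benjamini-Hochberg adjusted 0.254). In Dapa against Ctrl the difference was −27.1 (exact permutation p = 0.0909).

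Dach1, which encodes a transcriptional regulator, had a mean of 47.2 ± 10.8 in Case and 65.9 ± 13.7 in Dapa (SD, n = 6 each) and of 61.9 ± 4.86 in Ctrl (SD, n = 5). Case minus Ctrl was −14.7 (exact permutation p = 0.0216, Benjamini-Hochberg adjusted 0.392) and Dapa minus Case was 18.8 (exact permutation p = 0.0390, Benjamini-Hochberg adjusted 1). Foxc2, which encodes a forkhead factor, was at 85.2 ± 9.97 in Dapa (SD, n = 6) and 69.0 ± 11.7 in Ctrl (SD, n = 5), a difference of 16.2 (exact permutation p = 0.0390, Benjamini-Hochberg adjusted 0.425). In Case against Ctrl 2 of the 30 genes were lower and none higher by this measure, beside 6.78% lower and 3.1% higher over all genes.

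Lists for other cell types put these counts in context. A promoter summit in all 17 mice was found for 14 of 20 housekeeping genes, with Gusb lowest at 7 libraries. It was found for 5 of 15 proximal tubule genes (Lrp2, Hnf4a, Aqp1, Miox and Fbp1), with the transporter gene Slc22a8 lowest at 0, and for Slc12a3 alone among 10 genes of the loop of Henle and distal tubule. It was found for none of 10 endothelial, 10 mesangial and smooth muscle and 20 leukocyte genes, in which Ehd3 and Cspg4 with 15 libraries and Lcp1 with 13 were highest. The endothelial genes Pecam1 and Cdh5 had none. The medians were 15 libraries for the proximal tubule, 0 for endothelium, 0 for mesangium and smooth muscle and 1 for leukocytes.

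**Figure D5:**
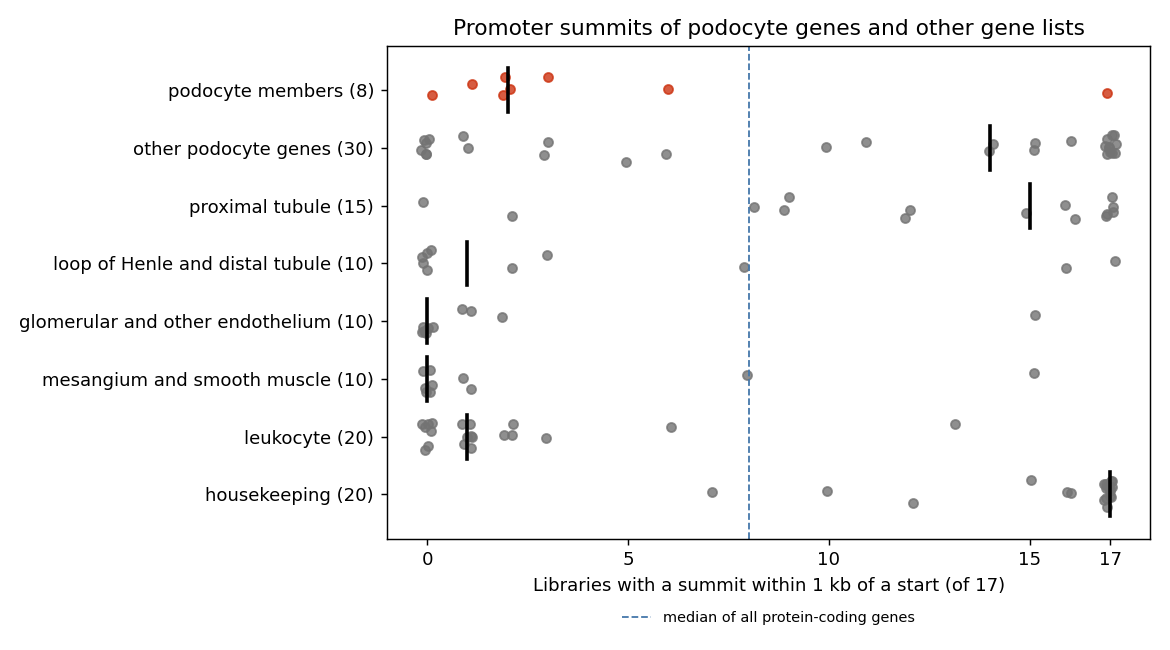
Number of libraries, of 17, with a promoter summit (horizontal axis) for each gene of the 8 lists (rows), in equal-length lists, with the median of each list as a black bar and that of all protein-coding genes (8) dashed. The 8 podocyte genes had a median of 2, the 30 other podocyte genes 14 and the housekeeping genes 17.

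The mean percentile over the 8 genes ran from 24.6 in Case 6 to 41.2 in Dapa 10. Of 17022 protein-coding genes ranked by Spearman's rho with this mean over the 17 libraries, Zfp593 (0.773), Atg2b (0.765) and Gskip (0.765) were the most like it. The last 2 are neighbours that start beside each other and had the same value. These are descriptions over points that share their summit lists.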

How the data were processed

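Kidney ATAC-seq, in which a transposase inserts adapters into open chromatin, was analysed from 1 summit list per library. Per the labels and the study's methods, the authors aligned reads to mm10 with Bowtie2 and called peaks with MACS2, and DiffBind and HOMER are named as well. The deposited score of each summit is a −log10 p or q value, and which of the 2 is not given in the sources used here. All scores were at least 2, so weaker summits are missing. No read counts were used and depth is unknown, so summit numbers limit the precision. Replicates are separate mice by the study's design.

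Summits were assigned to GENCODE genes (GRCm38). Summits tied at the end of an equal-length list (14 libraries, up to 12.7% of a list) were ordered by a fixed hash of position. Presence was compared by Fisher's exact test and percentile and summit number by exact permutation tests, 2-sided, over all genes with Benjamini-Hochberg adjustment. A presence test was adjusted only over genes that could reach 0.05. Summits extended by 250 bp and merged gave the consensus regions. The smallest permutation p is 0.00433 for 5 against 6 mice. In simulated data 200 genes had a summit in every mouse of 1 group and in none of the other. The presence test called all of these at the adjusted threshold, and in Case against Ctrl it also called 6 unchanged genes. The percentile test gave the planted changes low unadjusted p-values and called none. Smaller changes were not simulated, so the power of the presence test for them is unknown. In the Case against Ctrl percentiles 2790 genes at the smallest p would have been needed, and 549 reached it. Of 136 pairs of libraries none shared more than 0.797% of positions.

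The 8 genes are always named, with the region found in most libraries and the one nearest to a start, and of the other lists the highest and lowest gene. Some list genes are counted but not reported here by name. The 3 most similar genes outside the lists are named. The members and lists were chosen with earlier results of these data known. Member results were tracked across settings only where a gene had a summit in at least 9 libraries (percentile, number) or 5 (presence), a limit set after the data were seen. Alternatives were complete and shorter lists, other windows, extensions and merging, protein-coding genes, ties, mice left out, and a replicate block. Python 3.11.15, numpy 2.4.6, scipy 1.17.1 and pandas 2.3.3 were used.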

Additional observations from a re-analysis of the deposited data

Results flagged for a closer look

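In each group of 5 or 6 mice, the highest or lowest value was set against the others, and 9 of 36 groups held a mouse far from the rest, where chance flags about 1 in 20 groups (1.8 of 36). Many zeros in a group make any single summit stand out. Podxl stood at 14.7 in Ctrl 4 and Wt1 at 28.8 in the same mouse, with all other Ctrl mice at 0, and Lmx1b at 24.1 in Ctrl 3, where the next Ctrl mouse was at 2.10. Wt1 stood at 35.4 in Case 3 and Lmx1b at 26.5 in Case 2, with the other Case mice at 0. Case 3 also had 15 summits in the windows of the 8 genes, where the next Case mouse had 12, and 9 leukocyte genes with a promoter summit, where the next had 2. Podxl stood at 37.0 in Dapa 10, where the next Dapa mouse was at 12.8. Actn4 was low in Dapa 7, at 72.0, where the next Dapa mouse was at 86.7.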

How the results depend on the processing

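No gene and no region passed the adjusted threshold under any setting tried, in any of the 12 tests (239 values, smallest adjusted p 0.116). By unadjusted p under 0.05 the count of regions in Dapa against Case was 89, from 141 to 268 with any 1 Case or Dapa mouse left out and 315 without Case 3 and Dapa 8, and that of genes by presence was 37, from 52 to 108 and 125, and that by summit number was 197, or from 163 to 297 with 1 mouse left out. For regions and presence, the counts with 1 mouse left out ran in Case against Ctrl from 1403 to 2138 (1173 with all mice) and from 434 to 605 (341), and in Dapa against Ctrl from 1062 to 1699 (843) and from 291 to 456 (217). Without Case 3 and Dapa 8, the count of genes by presence in Dapa against Ctrl was 372. For the podocyte genes, apart from Wt1 in complete lists, 63 results gave 1180 values. Of these, 4 had an unadjusted exact permutation p under 0.05, each with 1 mouse left out. Of the 1180 values, 62 changed direction, all with p of at least 0.156 by exact or permutation tests. The cause of these changes was not tested.

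With all summits, these were the number of Nphs1 (−0.467) and Actn4 (−0.567) summits in Case against Ctrl; in Dapa against Case the Nphs1 percentile (9.10), the Nphs1 number (0.167) and the presence of the Plce1 region at −35 bp (−16.7 points); and in Dapa against Ctrl the presence of Nphs1, its upstream region and Lmx1b (−16.7 points each), the Lmx1b region 56.8 kb downstream (−3.33 points) and the number of Nphs1 (−0.300), Synpo (−0.200) and Plce1 (−0.133) summits. With lists of 14851 they were Nphs1 presence in Case against Ctrl (16.7 points) and Dapa against Case (−16.7 points) and the number of Synpo (−0.300, Case against Ctrl) and Actn4 summits (0.167, Dapa against Case, and 1.13, Dapa against Ctrl). With windows from 2 kb upstream they were Nphs1 presence (30.0, −50.0 and −20.0 points in Case against Ctrl, Dapa against Case and Dapa against Ctrl), its percentile (−1.62) and its number (−0.200) in Dapa against Ctrl. Within 1 kb of starts they were Nphs1 presence (50.0 points, Case against Ctrl, and −50.0, Dapa against Case), Podxl presence (−20.0, Case against Ctrl, and −3.33, Dapa against Ctrl), Lmx1b presence (−20.0, Dapa against Ctrl), the percentiles of Synpo (20.9, Case against Ctrl, and −3.95, Dapa against Case) and Actn4 (−3.24, Dapa against Case) and the Plce1 number (−0.0333, Dapa against Ctrl).

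Settings on ties were chosen after seeing the data. With ties left out, the values were 10.0 points for the presence of Nphs1 and of its upstream region in Case against Ctrl, 0.241 for the Synpo percentile in Case against Ctrl and −0.505 for Actn4 in Dapa against Case, and with ties kept 0.135 for Nphs1 in Dapa against Case. Without Case 3 and Dapa 8, the Synpo percentile differed by 0.104 in Case against Ctrl and Nphs1 by 6.43 in Dapa against Case. With an extension of 500 bp the Podxl region differed by 13.3 points in Dapa against Ctrl. With 1 mouse left out, percentile differences ran from −3.71 to 3.80 for Synpo in Case against Ctrl, and in Dapa against Case from −1.80 to 3.17 for Actn4 and from −5.14 to 6.96 for Nphs1. The Nphs1 number ran from −0.567 to 0.0333 in Dapa against Case and from −0.167 to 0.333 in Dapa against Ctrl. With 1 mouse left out, the adjusted p of Wt1 promoter presence ran from 0.202 to 0.481 in Case against Ctrl and from 0.272 to 0.582 in Dapa against Ctrl.

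Replicate numbers shared by Ctrl and Case did not pair the mice (correlations of −0.0497 to 0.0523 over 19316 genes, and 1 of 5 Ctrl mice was most like its own number). With the replicate block, the counts were 0 and the Synpo percentile differed by 3.80 in Case against Ctrl (exact paired permutation p = 0.688). Depth is unknown, and with 5 pairs the smallest exact p is 0.0625.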
